A study of Mus musculus with 8 samples.

Results

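The genes of one-carbon metabolism were examined as a list of 40 genes, chosen by name to cover the routes that bring in, carry and spend single carbon units. Earlier results of these data were known when the list was chosen, so its shares of calls are given as a description. All 40 were found by symbol in the authors' table of 33971 genes, and 36 of them passed the filter on low counts. The samples were whole brains of wild-type (WT) mouse embryos at E14.5. The dams of 4 embryos were fed a choline-deficient diet (CDD) from the day of mating until the embryos were collected, and those of the other 4 were on normal chow diet (ND). No gene was altered in either group, poly-A mRNA was sequenced from each brain, and the number of dams behind the 4 brains of a diet is not given in the sources used here.

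Choline is oxidised in part to betaine, whose methyl groups can turn homocysteine back into methionine, and this links the vitamin-like nutrient to the methionine cycle that makes S-adenosylmethionine, the methyl donor of the cell. Folate carries single carbons drawn mainly from serine and glycine, in the cytosol and in mitochondria, and gives them to methionine, thymidylate and purines. In the embryonic brain, dividing progenitors use these routes for nucleotides, and loss of folate carbon flow or of glycine cleavage is known to cause neural tube defects in mice.

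Of the 36 tested genes, 6 rose in CDD brains and 0 fell when p-values of edgeR's quasi-likelihood test were Benjamini-Hochberg adjusted over 19367 genes, with a threshold of 0.05. They were *Phgdh* and *Psat1* of serine synthesis, *Gldc* of glycine cleavage, *Tyms* of thymidylate synthesis, *Shmt1* of folate interconversion and *Ahcy* of the methionine cycle, with increases of 0.15 to 0.37 on the log2 scale. The 6 higher calls made up 16.7% of the tested genes, beside 4.24% of all tested genes called higher, 4.59% called lower and 8.83% called in either direction. DESeq2 and limma-voom each called the same 6 genes higher and 0 lower, and an unadjusted p under 0.05 was seen for 11 higher and 4 lower, together 41.7% beside 23.9% of all genes. The median standard error (SE) was 0.0620 for the 36 genes and 0.0844 for all genes tested. A change of a given size was thus called more readily in the list, and these shares are not like for like. The list did not move as a whole, since 16 tested genes lay above zero and 20 below and their median log2 fold change was -0.0056, beside -0.0038 for all genes tested.

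**Figure D1:**
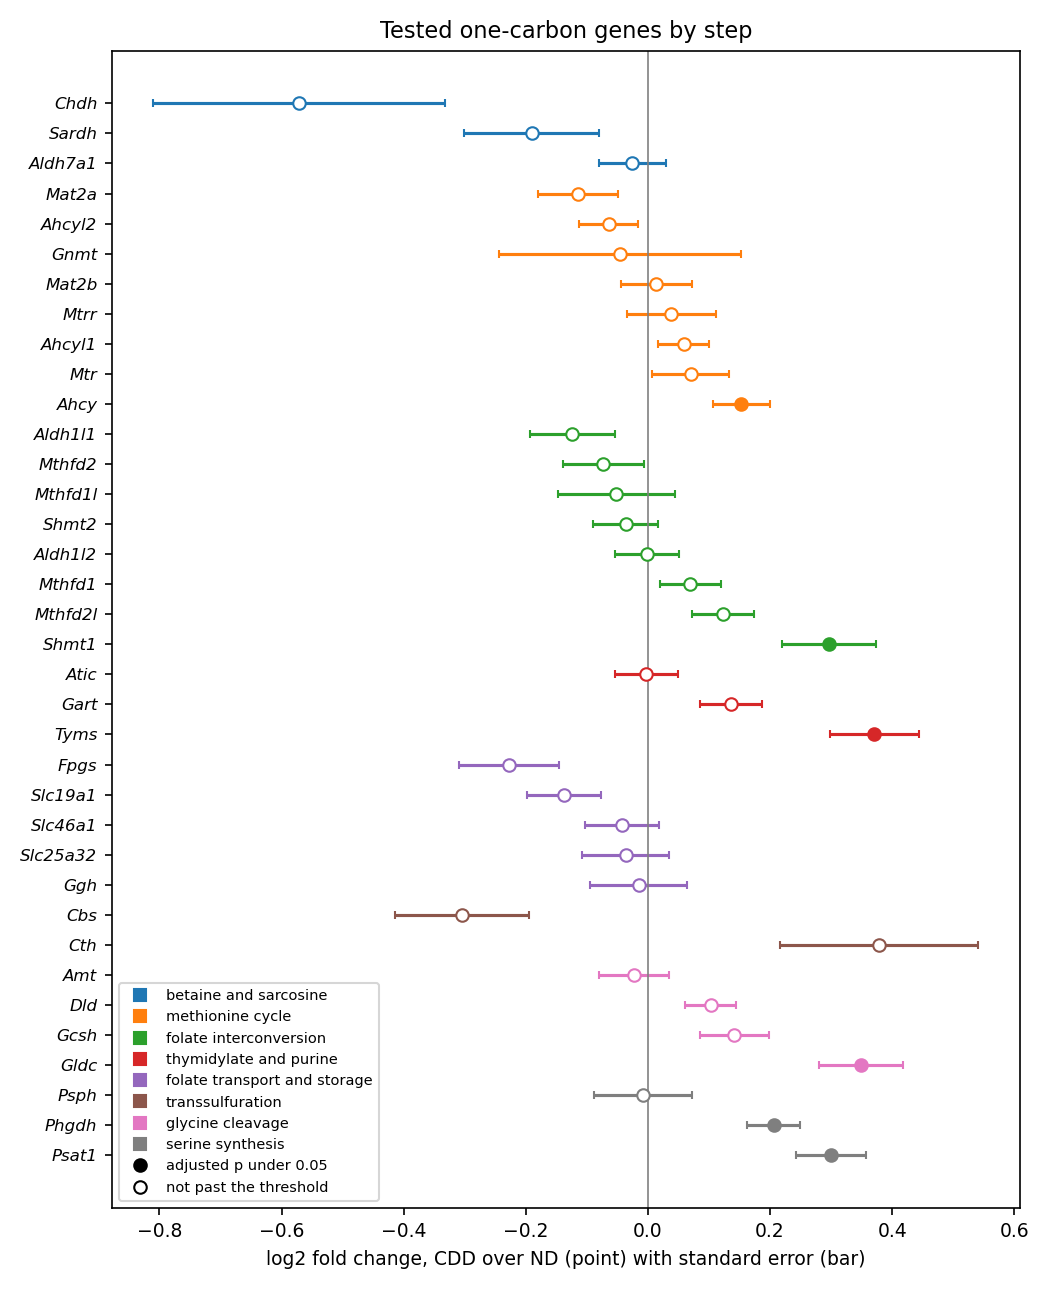
The log2 fold change of CDD over ND is plotted for each of the 36 tested genes, grouped by step, with bars of 1 standard error from the edgeR fit and filled points for the 6 genes past an adjusted p of 0.05. The filled points lie between 0.15 and 0.37, in 5 of the 8 steps, and the betaine and folate transport steps lie at or below zero throughout.

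The 8 libraries held 31770217 to 43121170 counts, and the 40 genes took 0.163% to 0.175% of them. Levels are given as CPM, which are counts set to 1 common library size, here after scaling by the trimmed mean of M values (TMM). Among the libraries, CDD replicate 2 held 4984 counts over 28 *Hox* genes, which mark hindbrain and spinal cord, beside 16 to 112 in the other brains. ND replicate 3 had the highest summed level of red blood cell markers, 2950.5 CPM, beside 793.0 to 1582.3 CPM in the other ND brains and 631.5 to 1232.6 CPM in the CDD brains. CDD replicate 4 had the highest summed level of cycling markers, 1399.6 CPM, and in a chi-square test of counts over all genes it stood at 10.4 to 30.8 per degree of freedom from the others, beside at most 18.5 between any other pair. By the same measure CDD replicate 3 was nearer to ND replicate 2 (4.01) than to any CDD brain (5.98 to 22.5). Without CDD replicate 4, 1514 genes were called and 5 of the list. Leaving out both CDD replicate 2 and ND replicate 3 reduced the calls over all genes from 1710 to 418 and the calls on the list from 6 to 2, *Tyms* (edgeR adjusted p = 0.0164) and *Gldc* (edgeR adjusted p = 0.0362). In that edgeR fit the adjusted p was 0.0695 for *Psat1*, 0.0801 for *Phgdh*, 0.0935 for *Shmt1* and 0.228 for *Ahcy*.

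For the 4 genes whose calls held whichever single brain was left out, the 250 bases before the annotated start are shown, because these are the regions in which genes that moved together could be compared for shared letters. The sequences are those of RefSeq on GRCm38.p6, all on the minus strand, at chr3:98339970-98340219 for *Phgdh*, chr19:15925060-15925309 for the first listed start of *Psat1*, chr19:30175442-30175691 for *Gldc* and chr5:30073626-30073875 for *Tyms*. Capitals mark matches to CCAAT or its reverse complement ATTGG, and to CACGTG.
Phgdh: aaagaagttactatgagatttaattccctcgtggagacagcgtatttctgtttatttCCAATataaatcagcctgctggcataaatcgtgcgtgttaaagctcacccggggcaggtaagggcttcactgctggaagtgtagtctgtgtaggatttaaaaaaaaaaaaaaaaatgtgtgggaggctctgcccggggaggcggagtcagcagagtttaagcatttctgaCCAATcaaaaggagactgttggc
Psat1: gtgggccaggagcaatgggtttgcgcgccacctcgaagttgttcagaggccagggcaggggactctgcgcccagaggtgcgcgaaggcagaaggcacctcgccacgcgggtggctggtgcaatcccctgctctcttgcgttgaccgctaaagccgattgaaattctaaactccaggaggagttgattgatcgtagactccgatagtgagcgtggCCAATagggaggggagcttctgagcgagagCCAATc
Gldc: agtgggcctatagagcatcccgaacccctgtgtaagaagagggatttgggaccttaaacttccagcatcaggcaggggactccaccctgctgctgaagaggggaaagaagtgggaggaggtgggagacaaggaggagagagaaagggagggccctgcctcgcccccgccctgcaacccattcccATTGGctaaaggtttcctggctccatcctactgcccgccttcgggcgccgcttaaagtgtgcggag
Tyms: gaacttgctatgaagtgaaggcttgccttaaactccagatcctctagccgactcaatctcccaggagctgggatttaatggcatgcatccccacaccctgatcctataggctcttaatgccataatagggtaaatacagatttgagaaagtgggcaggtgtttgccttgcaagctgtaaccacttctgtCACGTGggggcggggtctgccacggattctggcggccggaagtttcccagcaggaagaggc
The CCAAT letters occurred at 2 places for *Phgdh*, 2 for *Psat1* and 1 for *Gldc*, and at none for *Tyms*, which held a CACGTG match. The other listed start of *Psat1* held no CCAAT match.

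Promoter entries were matched by symbol for 35 of the 40 genes, leaving *Aldh1l2*, *Aldh7a1*, *Ggh*, *Slc25a32* and *Cth* without one. With the first listed start of each gene, CCAAT, on either strand, was in the 250 bases of 22 of the 35 (62.9%), beside 35.9% of the first starts of 12823 tested genes. Counting every listed start, it was in 23 of 44 (52.3%), beside 33.8% of all 32851 listed starts, which include those of genes not tested here. The GC-box letters GGGCGG were in 25 first starts (71.4%), beside 56.6% of the first starts of tested genes. They were in 29 of all starts (65.9%), beside 32.7% of all 32851. The backgrounds for first starts and for all starts are unlike sets of genes. CACGTG was in 3 first starts (8.57%), beside 8.00%. Neither TGATGNAAN, a form of the CCAAT-enhancer and ATF4 composite element, nor TTTCCCGC or TTTGGCGC, forms of the E2F site, occurred in these 250 bases of any of the 35. They were in 1.97% and 2.33% of the first starts of tested genes. These are matches of letters in a fixed window, and no binding was measured.

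In serine synthesis 2 of the 3 genes rose. The enzymes of this route make serine from a glycolytic intermediate, and serine is the main donor of carbon to folate. *Phgdh*, 3-phosphoglycerate dehydrogenase, the first enzyme, was at 95.3, 99.3, 94.2 and 102.6 CPM in CDD replicates 1 to 4 and at 83.2, 88.0, 83.1 and 85.1 CPM in ND replicates 1 to 4. All CDD brains lay above all ND brains. The mean rose from 84.8 ± 2.28 to 97.9 ± 3.86 CPM (SD, n = 4 per diet), a log2 fold change of 0.21 (SE 0.0428, edgeR quasi-likelihood adjusted p = 0.00659). *Phgdh* (ENSMUSG00000053398) is listed by the authors at chromosome 3, 98220486 to 98247306, minus strand, on a build that is not named, and the same holds for the other positions given in this way.

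*Psat1*, the phosphoserine aminotransferase of the next step (ENSMUSG00000024640, chromosome 19, 15882042 to 15924701, minus strand in the authors' table), was at 144.4, 152.2, 129.8 and 159.8 CPM in the CDD brains and at 118.5, 128.7, 112.5 and 116.3 CPM in the ND brains. The diets were apart by the narrow gap between CDD replicate 3 and ND replicate 2. The mean rose from 119.0 ± 6.90 to 146.5 ± 12.8 CPM (SD, n = 4), a log2 fold change of 0.30 (SE 0.0575, edgeR adjusted p = 0.00503). *Psph*, the phosphatase that ends the route, was called in neither direction, at 14.0 ± 1.46 CPM in CDD and 14.1 ± 0.636 CPM in ND (SD, n = 4) with a log2 fold change of -0.01 (SE 0.0803). Its counts are uncertain in the stretch where it overlaps *Cct6a* on the opposite strand. Over its whole length *Cct6a* had 85118 counts beside 3925 for *Psph*, and the sources used here do not state whether counting used strand.

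**Figure D2:**
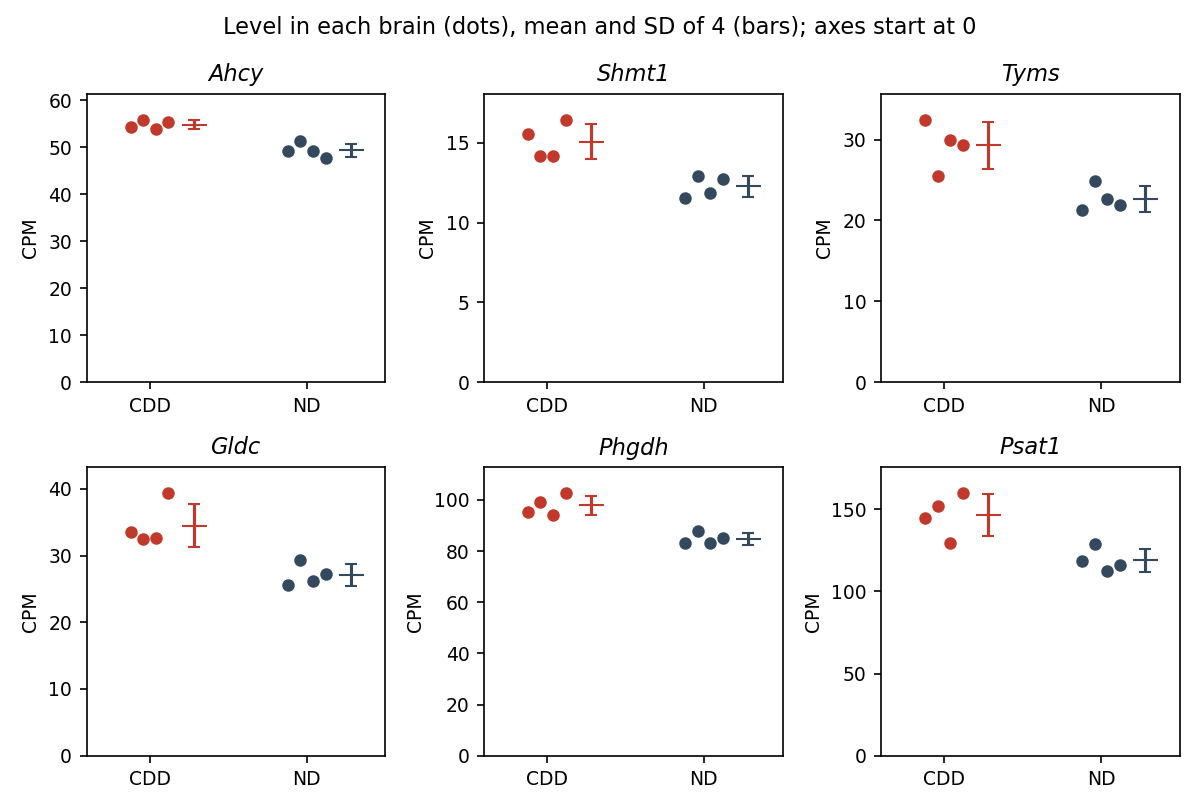
The level of each of the 6 genes that rose is plotted in CPM for each brain, with dots for brains, bars for mean and SD of 4, and axes starting at 0. In each panel the 4 CDD brains lie above the 4 ND brains, with the widest separation relative to the level for *Gldc* and the narrowest gaps for *Tyms* and *Psat1*.

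The glycine cleavage system breaks glycine down in mitochondria and passes a carbon to folate, and 1 of its 4 genes rose. *Gldc*, the decarboxylase or P-protein (ENSMUSG00000024827, chromosome 19, 30075847 to 30152829, minus strand in the authors' table), was at 33.5, 32.5, 32.6 and 39.3 CPM in the CDD brains and at 25.6, 29.3, 26.2 and 27.2 CPM in the ND brains. No CDD brain reached down to the ND range, and CDD replicate 4 stood well above the other CDD brains. The mean rose from 27.1 ± 1.60 to 34.5 ± 3.26 CPM (SD, n = 4), a log2 fold change of 0.35 (SE 0.0685, edgeR adjusted p = 0.00471).

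*Gcsh*, the lipoyl carrier or H-protein, was at 28.7, 30.1, 27.3 and 28.8 CPM in CDD and 26.5, 25.5, 25.5 and 26.6 CPM in ND, without overlap, and its log2 fold change of 0.14 (SE 0.0567) had an edgeR adjusted p of 0.128. *Dld*, the dihydrolipoamide dehydrogenase or L-protein, which other mitochondrial complexes share, was at 94.3, 94.4, 88.4 and 91.2 CPM in CDD and at 87.0, 83.0, 84.5 and 88.4 CPM in ND. The lowest CDD brain and the highest ND brain of *Dld* were both at 88.4 CPM after rounding, and its log2 fold change was 0.10 (SE 0.0420, edgeR adjusted p = 0.136). Neither gene passed the threshold. *Amt*, the aminomethyltransferase or T-protein, had a log2 fold change of -0.02 (SE 0.0573).

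Among the genes that spend folate carbon on nucleotides, *Tyms* rose and the 2 purine enzymes did not pass the test. *Tyms*, thymidylate synthase (ENSMUSG00000025747, chromosome 5, 30263200 to 30278615, minus strand in the authors' table), was at 32.5, 25.5, 29.9 and 29.3 CPM in the CDD brains and at 21.2, 24.8, 22.6 and 21.9 CPM in the ND brains. CDD replicate 2 and ND replicate 2 were close to each other and the other brains of each diet were well apart. The mean rose from 22.7 ± 1.55 to 29.3 ± 2.87 CPM (SD, n = 4), a log2 fold change of 0.37 (SE 0.0731, edgeR adjusted p = 0.00477). It was the largest increase among the 6 calls.

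*Gart*, a trifunctional enzyme of purine synthesis that uses a formyl-folate, was at 60.7, 62.1, 58.7 and 65.8 CPM in CDD and at 56.7, 59.8, 53.2 and 55.4 CPM in ND. The ranges overlapped through CDD replicate 3, and the log2 fold change of 0.14 (SE 0.0506) had an edgeR adjusted p of 0.100. Without CDD replicate 3 the adjusted p was 0.0475. *Atic*, which adds the second formyl carbon, had a log2 fold change of -0.00 (SE 0.0521).

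Of the 9 genes that interconvert folate forms, 8 were tested and *Shmt1* was the only one called. *Shmt1* encodes the cytosolic serine hydroxymethyltransferase, which moves a carbon from serine to folate (ENSMUSG00000020534, chromosome 11, 60678930 to 60702544, minus strand in the authors' table). It was at 15.5, 14.1, 14.2 and 16.4 CPM in the CDD brains and at 11.6, 12.9, 11.8 and 12.8 CPM in the ND brains. Every CDD brain was higher than every ND brain. The mean rose from 12.3 ± 0.672 to 15.1 ± 1.12 CPM (SD, n = 4), a log2 fold change of 0.30 (SE 0.0768, edgeR adjusted p = 0.0222).

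The call on *Shmt1* was lost in 4 of the 8 fits without a single brain, those without CDD replicate 1, ND replicate 1, ND replicate 3 or ND replicate 4, with an adjusted p of up to 0.0928 in edgeR's test. *Shmt1* overlaps *Smcr8* on the opposite strand, which had 15587 counts beside 3815 for *Shmt1* and a log2 fold change of 0.11 (SE 0.0532, edgeR adjusted p = 0.204). The share of *Shmt1* counts that came from *Smcr8* reads was not tested.

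The mitochondrial enzyme of the same reaction, *Shmt2*, had the highest level per gene length among the interconverting enzymes, 18.3 RPKM, which is CPM per kilobase of the gene length in the authors' table. That length may differ from the length of the transcripts in these brains, so comparisons of different genes per length are approximate. *Shmt2* was at 55.6, 55.4, 58.8 and 55.2 CPM in CDD and at 60.6, 61.8, 55.5 and 53.0 CPM in ND, and the ND brains spanned the CDD range. A log2 fold change of -0.04 was fitted (SE 0.0533, edgeR adjusted p = 0.744). Within each brain *Shmt2* exceeded *Shmt1* per gene length, on average 5.23-fold. The log2 ratio was 2.16, 2.29, 2.37 and 2.07 in CDD and 2.71, 2.58, 2.55 and 2.37 in ND, so that each CDD brain was below each ND brain. CDD replicate 3 and ND replicate 4 differed only in the third decimal of this ratio.

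*Mthfd2* and *Mthfd2l* encode mitochondrial methylene-tetrahydrofolate dehydrogenases. *Mthfd2l* was at 42.2, 44.6, 42.5 and 44.2 CPM in CDD and at 39.8, 38.5, 41.5 and 39.5 CPM in ND, without overlap. It did not pass the test, with a log2 fold change of 0.12 (SE 0.0510, edgeR adjusted p = 0.142). *Mthfd2* had a log2 fold change of -0.07 (SE 0.0663). The log2 ratio of *Mthfd2* to *Mthfd2l* per length was -0.50 ± 0.0808 in CDD and -0.30 ± 0.0347 in ND (SD, n = 4) and did not overlap between the diets.

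The other interconverting enzymes gave overlapping ranges. The log2 fold change was 0.07 for *Mthfd1*, the trifunctional cytosolic enzyme, and -0.05 for *Mthfd1l*, its mitochondrial ligase counterpart. It was -0.12 for *Aldh1l1*, the cytosolic formyl-folate dehydrogenase, and -0.00 for its mitochondrial relative *Aldh1l2*. The log2 ratio of *Mthfd1l* to *Mthfd1* and that of *Aldh1l2* to *Aldh1l1* overlapped between diets, at means of -2.41 in CDD and -2.29 in ND for the former and -0.21 and -0.34 for the latter. *Ftcd*, which feeds carbon from histidine breakdown into folate, had 0 to 4 counts in a brain, 20 in all, and was not tested.

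**Figure D3:**
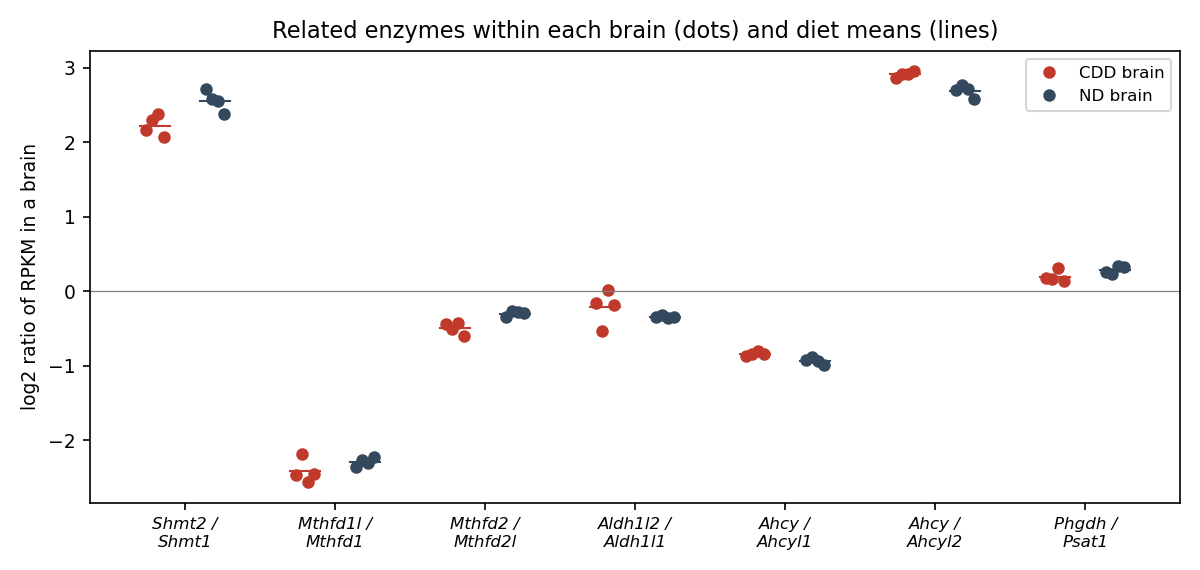
The log2 ratio per gene length of paired enzymes is plotted for each brain, with dots for brains and lines for diet means. The diets are apart for *Shmt2* over *Shmt1*, *Mthfd2* over *Mthfd2l* and *Ahcy* over each of its relatives, and overlap for the other 3 of the 7 ratios. Each separated ratio holds a gene whose own levels were apart (*Shmt1*, *Mthfd2l* or *Ahcy*), and no share over other gene pairs was computed.

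The methionine cycle held 8 genes, all tested, of which 1 rose by a small amount. *Ahcy*, which hydrolyses S-adenosylhomocysteine left over after methylation (ENSMUSG00000027597, chromosome 2, 154901230 to 154916417, minus strand in the authors' table), was at 54.2, 55.8, 53.8 and 55.3 CPM in the CDD brains and at 49.1, 51.2, 49.1 and 47.7 CPM in the ND brains. Both groups were tight and they did not overlap. The mean rose from 49.3 ± 1.47 to 54.8 ± 0.937 CPM (SD, n = 4), a log2 fold change of 0.15 (SE 0.0464, edgeR adjusted p = 0.0457). This call stood just inside the threshold and held in only 2 of the 8 fits without a single brain, where the adjusted p ran from 0.0366 to 0.161.

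The Ahcy-like genes *Ahcyl1* and *Ahcyl2* did not pass the test. *Ahcyl2* was at 48.5, 48.3, 46.7 and 46.6 CPM in CDD and at 49.4, 49.0, 48.6 and 51.9 CPM in ND, all CDD brains below all ND brains by a small margin, with a log2 fold change of -0.06 (SE 0.0477, edgeR adjusted p = 0.448). *Ahcyl1*, whose product regulates calcium release channels, had a log2 fold change of 0.06 (SE 0.0416). Per length *Ahcy* exceeded *Ahcyl2* on average 6.96-fold. This fold rests largely on the lengths in the authors' table, 2805 and 18255 bases, since the mean levels in ND were 49.3 and 49.7 CPM. The log2 ratio of *Ahcy* to *Ahcyl2* was 2.91 ± 0.0362 in CDD and 2.69 ± 0.0783 in ND (SD, n = 4), and that to *Ahcyl1* was -0.84 ± 0.0283 and -0.93 ± 0.0448. In both ratios the CDD brains lay above the ND brains without overlap.

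*Mat2a*, the catalytic subunit of S-adenosylmethionine synthetase, had the highest level per length of all 40 genes, 58.1 RPKM. It was at 283.1, 238.4, 264.1 and 215.3 CPM in CDD and at 278.0, 272.0, 265.5 and 267.7 CPM in ND. The CDD brains were spread on both sides of the narrow ND range, and the log2 fold change was -0.11 (SE 0.0656, edgeR adjusted p = 0.313). The regulatory subunit *Mat2b* had 0.01, methionine synthase *Mtr* 0.07, its reductase *Mtrr* 0.04 and the glycine methyltransferase *Gnmt* -0.05 as log2 fold changes, each with overlapping ranges.

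The betaine route, which joins choline itself to this network, was at very low level in these brains in all but 2 of its 6 genes. *Bhmt*, which moves a methyl group from betaine to homocysteine, had 9, 6, 0 and 11 counts in the CDD brains and 2, 2, 3 and 0 in the ND brains. *Bhmt2*, a homocysteine methyltransferase that uses S-methylmethionine, had 9 counts over all 8 brains, and *Dmgdh*, which demethylates dimethylglycine, had 45. None of these 3 passed the filter on low counts. With no filter the log2 fold change of *Bhmt* was 1.80 (SE 0.762, edgeR adjusted p = 0.160). The 3 genes are neighbours in the authors' table on chromosome 13, from 93753183 to 93774469 and 93792228 to 93810810 on the minus strand and from 93810941 to 93889341 on the plus strand.

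*Chdh*, the choline dehydrogenase that starts the route in mitochondria, had 278 counts in all. It was at 0.755, 0.927, 0.883 and 0.633 CPM in CDD and at 0.936, 0.938, 1.30 and 1.59 CPM in ND. The CDD brains were all lower, by a margin worth less than 1 count between CDD replicate 2 and ND replicate 1, and the log2 fold change of -0.57 (SE 0.239) had an edgeR adjusted p of 0.145. *Chdh* overlaps the calcium channel gene *Cacna1d* on the opposite strand, which had 21037 counts and fell from 82.3 ± 3.21 to 68.7 ± 4.82 CPM (SD, n = 4), a log2 fold change of -0.26 (SE 0.0514, edgeR adjusted p = 0.00477). Whether reads of *Cacna1d* entered the *Chdh* count was not tested.

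*Aldh7a1*, which oxidises betaine aldehyde and other aldehydes, was the best expressed gene of the route per length at 9.32 RPKM. It was at 47.9 ± 2.08 CPM in CDD and 48.7 ± 2.95 CPM in ND (SD, n = 4), with a log2 fold change of -0.03 (SE 0.0545). *Sardh*, which demethylates sarcosine, had -0.19 (SE 0.110, edgeR adjusted p = 0.309) and overlapping ranges.

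**Figure D4:**
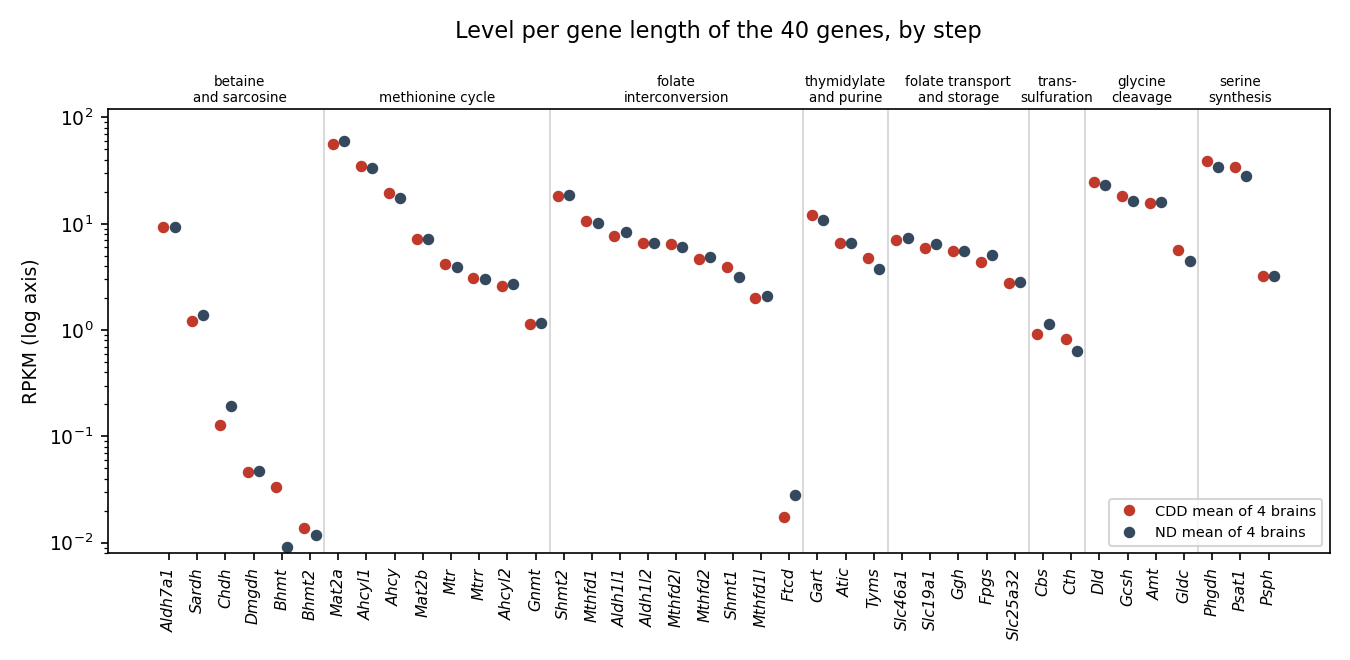
The mean level of each of the 40 genes over the 4 CDD and over the 4 ND brains (dots) is plotted in RPKM on a log axis, by step. Means over all 8 brains run from under 0.05 RPKM for *Bhmt*, *Bhmt2*, *Dmgdh* and *Ftcd* to 58.1 RPKM for *Mat2a*, followed by *Phgdh* at 36.7 RPKM.

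Both transsulfuration genes, which turn homocysteine into cysteine, were at low level and neither passed the test. *Cbs*, cystathionine beta-synthase, was at 6.10, 7.45, 7.13 and 6.94 CPM in CDD and 6.96, 8.19, 9.92 and 9.04 CPM in ND, with overlapping ranges and a log2 fold change of -0.30 (SE 0.110, edgeR adjusted p = 0.0901). *Cth*, cystathionine gamma-lyase, was at 2.54, 2.14, 2.16 and 2.35 CPM in CDD and at 1.52, 2.19, 1.71 and 1.65 CPM in ND. Only ND replicate 2 reached the CDD range, and the log2 fold change of 0.38 (SE 0.162) had an edgeR adjusted p of 0.155.

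The 5 genes of folate transport and storage gave log2 fold changes from -0.23 to -0.02, and none passed the test. The lowest was *Fpgs*, which adds glutamates that keep folate in the cell, at 17.9, 16.1, 17.7 and 14.0 CPM in CDD and 18.4, 20.4, 20.5 and 17.7 CPM in ND. Its ranges overlapped and its edgeR adjusted p was 0.0894. It moved to 0.0434 with no filter on low counts and to 0.0472 without CDD replicate 3. *Fpgs* overlaps the endothelial gene *Eng* on the opposite strand, which had 8755 counts beside 4981 and a log2 fold change of 0.04 (SE 0.0584).

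Of the transporters, the proton-coupled carrier *Slc46a1* had the highest level per length, 7.18 RPKM, and a log2 fold change of -0.04 (SE 0.0611). It was -0.14 (SE 0.0612, edgeR adjusted p = 0.175) for the reduced folate carrier *Slc19a1* and -0.04 for the mitochondrial carrier *Slc25a32*. *Ggh*, which removes the glutamates, had -0.02.

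Of the 40 genes, 8 overlap a gene on the opposite strand that had at least 10% of their counts. Beside *Shmt1*, *Chdh*, *Fpgs* and *Psph*, these were *Slc19a1* with *Col18a1*, *Aldh7a1* with *Phax*, *Aldh1l2* with *Nopchap1* and *Dmgdh* with the noncoding *AW495222*. Reads in the bases that partners share cannot be told apart without strand, and the counts of a partner are those of its whole gene. In the authors' positions the shared stretch was 60678930 to 60679113 for *Shmt1*, 29761896 to 29762484 for *Chdh*, 32572621 to 32572681 for *Fpgs* and 129864062 to 129864513 for *Psph*. It was 83323314 to 83324369 for *Aldh1l2*, 56695515 to 56706023 for *Aldh7a1*, 76888012 to 76896836 for *Slc19a1*, and all of *AW495222* for *Dmgdh*.

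By compartment, 5 of 19 tested cytosolic genes rose with a median log2 fold change of 0.06, and 1 of 12 tested mitochondrial genes rose with a median of -0.03. The difference between compartments was not tested. In 11 of the 36 tested genes (30.6%) the 4 CDD and 4 ND brains did not overlap, 9 with CDD above and 2 with CDD below, beside 15.0% of all genes (7.65% above and 7.39% below). The lower median SE of the listed genes limits this comparison too.

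Neighbouring pathway genes were given by 7 further lists with 61 genes, 59 of them tested, of which 4 rose and 2 fell, near the 8.83% called among all genes, with a median log2 fold change of -0.02. Among 11 nucleotide genes 3 rose. *Rrm1*, the large subunit of ribonucleotide reductase, rose from 113.8 ± 4.11 to 142.3 ± 11.7 CPM (SD, n = 4), a log2 fold change of 0.32 (edgeR adjusted p = 0.00156). Its small subunit *Rrm2* had 0.23 (edgeR adjusted p = 0.0153) and the purine enzyme *Paics* 0.22 (edgeR adjusted p = 0.00494). The calls on *Rrm1* and *Paics* held in all 8 fits without a single brain, and that on *Rrm2* in 5.

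Of 11 tested genes of methionine uptake, salvage and polyamines, *Mtap*, which starts methionine salvage, rose by 0.29 (edgeR adjusted p = 0.0219), and *Srm*, spermidine synthase, fell by 0.17 on the log2 scale (edgeR adjusted p = 0.0412). The call on *Mtap* held in 5 of the 8 fits without a single brain and that on *Srm* in 1. Of 9 genes of serine and glycine transport and use, the neutral amino acid transporter *Slc1a4* fell by 0.16 on the log2 scale (edgeR adjusted p = 0.0421), a call that held in 3 of those 8 fits and was lost under limma-voom and RLE scaling. No gene passed the test among 6 of folate uptake and processing, 9 of cobalamin handling, 9 of cysteine and glutathione and 4 tested small-molecule methyltransferases. *Mat1a* and *Nnmt* did not pass the filter on low counts.

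Of 12 cycling markers 11 were called higher, with a median log2 fold change of 0.32, and their summed level was 1145.7 to 1399.6 CPM in CDD and 915.6 to 1052.2 CPM in ND, without overlap. Of 8 radial glia markers 3 were called higher (*Pax6*, *Vim* and *Nes*) and 5 were not called, among them *Ptprz1*, with all CDD brains below all ND brains and a log2 fold change of -0.10, *Fabp7* at -0.04 and *Slc1a3* at 0.03. The sum of the 8 was 1764.9 to 1918.4 CPM in CDD and 1670.0 to 1718.4 CPM in ND, without overlap. Its difference between diets came mainly from *Vim*, at means of 565.4 CPM in CDD and 489.5 CPM in ND, and *Nes*, at 360.7 and 260.1 CPM. The sum is thus not a level shared by all 8 markers. Of 8 markers of postmitotic neurons 1 was called lower (*Snap25*), and their sums overlapped at 5683.1 to 6353.0 and 5764.2 to 5986.6 CPM. In whole brains, more cells of a type and more RNA per cell cannot be told apart.

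Set against the summed cycling markers of the same brain, a measure chosen after the values were seen, the diets overlapped for 5 of the 6 genes that rose. *Tyms* was 2.36 ± 0.259% of that sum in CDD and 2.33 ± 0.114% in ND, and *Gldc* was 2.77 ± 0.0901% and 2.79 ± 0.101% (SD, n = 4). The means of the other overlapping genes were lower in CDD, at 7.90 ± 0.570% beside 8.75 ± 0.326% for *Phgdh*, 11.8 ± 0.850% beside 12.3 ± 0.0281% for *Psat1* and 1.21 ± 0.0272% beside 1.26 ± 0.0657% for *Shmt1*. *Mki67* and *Top2a* weighed most in the cycling sum, at means of 300.6 and 302.3 CPM in CDD and 225.8 and 222.3 CPM in ND. Their log2 fold changes, 0.41 and 0.44, were above the median of 0.32 of the cycling markers. Ratios without these heavy markers were not computed. For *Phgdh* and *Psat1* the overlap came from CDD replicate 2 alone, at 8.53% and 13.1%. The other CDD brains were at 7.33 to 8.22% beside 8.36 to 9.08% in ND for *Phgdh*, and at 11.3 to 11.4% beside 12.2 to 12.3% for *Psat1*. *Ahcy* was lower in CDD without overlap, at 4.43 ± 0.391% beside 5.08 ± 0.207%. Set against the radial glia sum, only *Phgdh* stayed apart, at 5.27 ± 0.0823% in CDD and 5.01 ± 0.113% in ND. The difference of that sum between diets came mainly from *Vim* and *Nes*. These ratios divide genes that rose by sums that were also higher in CDD, so a smaller difference between diets was built in. The part of the cycling and radial glia markers in the 6 calls was not tested.

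**Figure D5:**
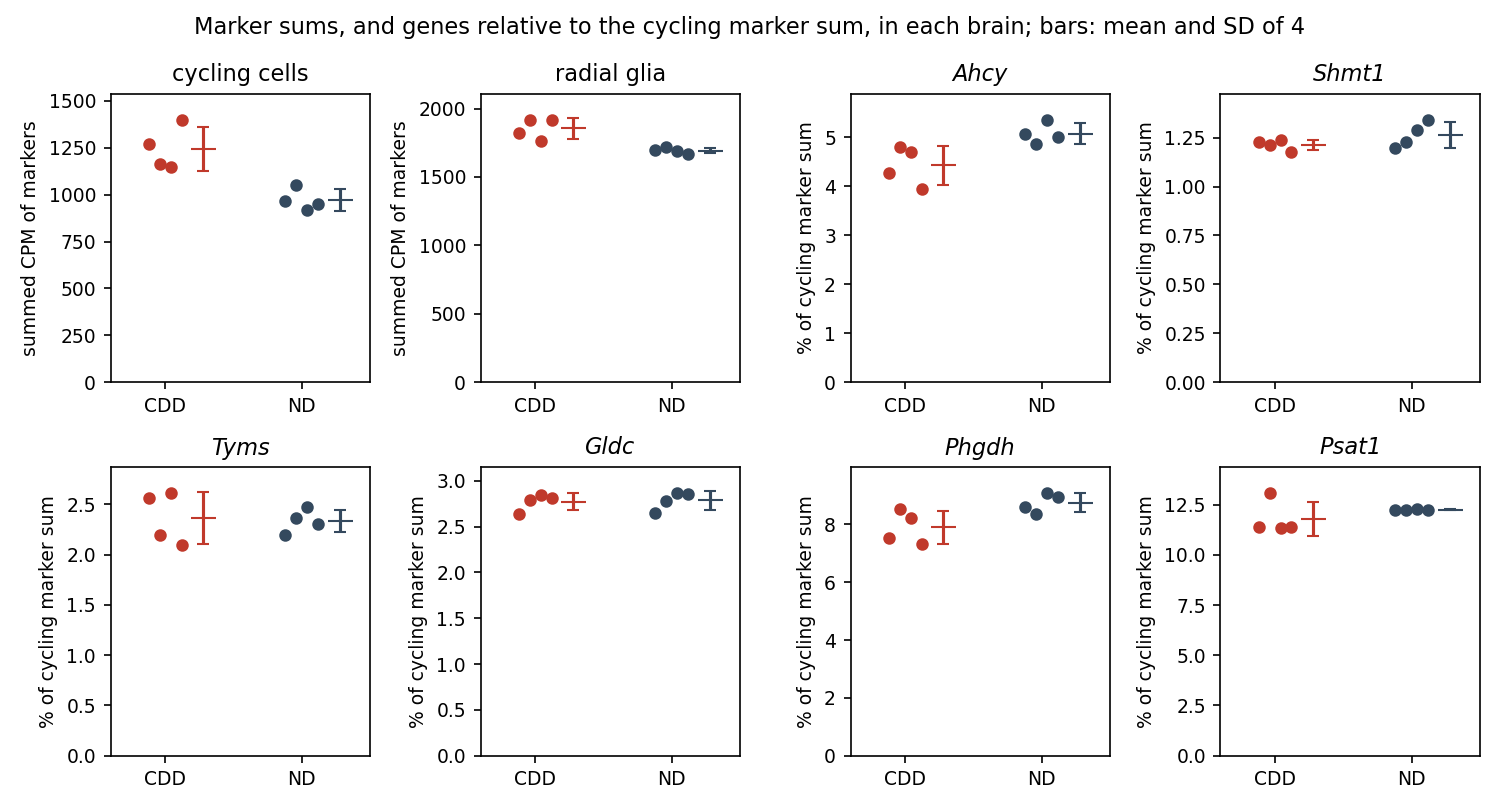
The first panels plot the summed CPM of the cycling and the radial glia markers in each brain, and the others the 6 genes that rose as a percentage of the cycling sum, with bars for mean and SD of 4 and axes from 0. The marker sums are apart between diets, that of radial glia mainly through *Vim* and *Nes*, and of the percentages only that of *Ahcy* is.

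None of 7 tested red blood cell markers was called. Of 6 endothelial markers *Cldn5* was called lower, of 5 meningeal markers *Lum* was called higher and *Col1a1* and *Col1a2* lower, and of 5 choroid plexus markers *Otx2* was called higher. Liver, a main site of the betaine route, was checked with 7 markers, of which 5 were found, 2 were tested and 0 were called. Those tested were *Ttr*, which is also on the choroid plexus list, and *Apoa2*, with 9 to 23 counts in a brain. Of those not tested, *Alb* had 0 to 4, *Afp* 0 to 5 and *Ahsg* 0 to 3 counts in a brain.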

How the data were processed

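The samples were 8 whole brains of WT E14.5 mouse embryos, 4 per diet, grouped by the treatment label. The authors deposited 1 table of all genes with raw counts per gene and brain, and the gene length (other unit) used for RPKM here. HISAT2 2.0.5, featureCounts 1.5.0-p3 and DESeq2 1.20.0 are named in the submitters' processing notes, with no settings, and the genome build and strand setting are not given in the sources used here. Their normalized columns, fold changes and p-values, and the shorter lists of selected genes, were not used.

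Counts were tested in edgeR 4.0.16 (R 4.3.3) by the quasi-likelihood test with TMM scaling, filterByExpr (minimum count 10) and Benjamini-Hochberg adjustment over all 19367 genes that passed, at 0.05. Log ratios used a prior count of 0.5. Alternatives were DESeq2 1.42.0, limma-voom 3.58.1, RLE scaling, no filter, a replicate block and leaving out brains. The fit was checked on simulated counts. Figures used matplotlib 3.10.9. The members, the 61 other pathway genes and the 8 marker lists were chosen with earlier results of these data known. Genes were named in full if called, if the diets did not overlap, or if highest per length in their step. Promoters came from RefSeq (GRCm38.p6), whose coordinates are not those of the table. Replicates differed by more than sampling noise (chi-square per degree of freedom 3.76 to 22.5 within a diet). Nothing says that the brains of a diet came from separate dams. The p-values set the difference between diets against the spread between these brains, which may be technical in part. Diet was given to the dam, so diet and litter cannot be told apart if the brains of a diet shared a litter.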

Additional observations from a re-analysis of the deposited data

Results flagged for a closer look

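In 2 of the 72 groups of 4 brains examined, 1 brain stood apart from the other 3 by more than the 95% limit of Dixon's ratio of gap to range. About 3.6 such groups are expected by chance. *Shmt2* in CDD replicate 3 was the highest of its diet at 5.88 log2 CPM (58.8 CPM, beside 55.2 to 55.6 CPM in the other CDD brains). *Gldc* in CDD replicate 4 was the highest of its diet at 5.3 log2 CPM (39.3 CPM, beside 32.5 to 33.5 CPM). Without CDD replicate 4 the rise of *Gldc* still passed the test.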

How the results depend on the processing

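Calls on the 40 genes numbered 6 under DESeq2, limma-voom, RLE scaling and no filter, and 4 to 8 without 1 brain (4 to 7 higher, 0 to 1 lower). With no filter 5 were higher and 1, *Fpgs*, lower, and *Ahcy* was not called (edgeR adjusted p = 0.0668). Of the single-gene results 460 kept direction and side of the threshold, 16 lost the call, 3 gained it and 25 changed sign. The sign changes were in 8 genes near zero, with 0 called in either fit. They were *Aldh1l2* and *Atic* under DESeq2 (log2 fold changes of 0.0016 and 0.00057) and RLE scaling (0.0014 and 0.00061). Without 1 or both named brains the values ran from -0.060 to 0.0098 for *Aldh7a1*, -0.16 to 0.070 for *Gnmt*, -0.019 to 0.037 for *Mat2b*, -0.028 to 0.033 for *Aldh1l2*, -0.034 to 0.025 for *Atic*, -0.044 to 0.024 for *Ggh*, -0.068 to 0.0089 for *Amt* and -0.073 to 0.037 for *Psph*. Calls over all genes ran from 471 (without ND replicate 3) to 2495 without 1 brain, with 615 without ND replicate 4 and 688 without ND replicate 1 (204 to 1222 higher, 267 to 1273 lower). Calls on the other pathway genes ran from 2 (without ND replicate 3 or 4) to 9 (2 to 5 higher, 0 to 5 lower), with 3 without ND replicate 1, and the lower calls were 4 under DESeq2 and 1 under limma-voom and under RLE scaling. Leaving out CDD replicate 2 and ND replicate 3 together, chosen after seeing the data, gave 418 calls over all genes (177 higher, 241 lower), 2 on the 40 genes, both higher, and 1 on the other pathway genes (1 higher, 0 lower). The cause was not tested.

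The labels number the brains 1 to 4 in both diets, and the deviations of same-numbered brains correlated at 0.115, -0.14, 0.126 and 0.250. For CDD replicates 1, 3 and 4, but not 2, the ND brain of the same number was the most correlated of the ND brains. The main fit did not take the numbers as pairs, and whether they stand for a batch was not tested. With a replicate block 1812 genes were called, 842 higher and 970 lower, with 5 of the 40 genes, *Ahcy* not among them (edgeR adjusted p = 0.0589), and 6 other pathway genes. At a median SE of 0.0620 for the tested genes of the list, beside 0.0844 for all genes tested, the smallest change called in the list was 0.15 on the log2 scale. Smaller ones may be missed at this number of brains.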
